A study of Homo sapiens with 18 samples.

Results

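The MDM2 degrader MD-224, given on its own, was compared with its solvent DMSO in SJSA-1 cells that had received no DNA-breaking drug. The comparison takes the 3 MD-224 libraries and the 3 DMSO libraries, which are 6 of the 18 libraries of the series, and every one of the 3074 genes in the deposited table. SJSA-1 is an established line from a human osteosarcoma that carries extra copies of MDM2. Cells of both groups spent 72 h in DMSO, counted from the day after seeding. After the first 48 h the DMSO was renewed, and for the last 24 h the MD-224 group also received 1 µM MD-224 while the DMSO group received DMSO alone. A further group in the same 72 h of DMSO received 1 µM MI-1061, an MDM2 inhibitor, for the last 24 h (3 libraries). Neocarzinostatin (NCS), which cuts DNA strands, was present for 72 h at 1 µg/mL in a second set of cells. These received 1 µM MD-224, 1 µM MI-1061 or DMSO in their last 24 h (3 libraries each). Poly(A) RNA was sequenced, and the values are reads scaled by each library's size factor, called normalized counts below. The labels do not say whether the 3 libraries of a group came from separate cultures. The limma p-values measure the spread between libraries within groups, pooled over all 6 groups of the series, and this spread may be technical.

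MDM2 is the ubiquitin ligase that binds the transcription factor p53, hides its activation domain and marks it for destruction, and p53 in turn switches on the MDM2 gene. MI-1061 fills the pocket in which MDM2 holds p53. MD-224 joins an MDM2-binding unit to a ligand of the ubiquitin ligase adaptor cereblon, so that MDM2 itself is marked for the proteasome. Released p53 acts through target genes that halt the cell cycle, start apoptosis, repair DNA and alter metabolism.

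Of the 3073 genes that could be tested, 1225 (39.9%) were called higher with MD-224 than with DMSO and 86 (2.8%) lower, by limma at a Benjamini-Hochberg adjusted p under 0.05. With only the MD-224 and DMSO libraries in the fit, 763 were called higher and 46 lower. The median gene was 1.40-fold higher, so a list of genes is read below against this background and not against 0. The deposited table appears to be a selection, by a rule that is not given in the sources used here. In its values, the mean of every listed gene was at least 1.75-fold higher after NCS with MI-1061 than in the DMSO libraries. If the genes were listed for that ratio, the DMSO libraries took part in the choice, and counts of genes higher than DMSO or lower than MI-1061 cannot be told apart from it. When the listed values were rescaled by TMM, which assumes that most genes do not change, the median log2 change moved from 0.48 to −0.01 (a shift of −0.49), and 327 genes (10.6%) were called higher and 357 (11.6%) lower. TMM used only the listed genes, so a median near 0 is largely set by the scaling and is not a result. If the genes were listed for a rise over DMSO, its assumption may not hold for them. For each gene group the calls under this second scaling stand beside the first, to show how far they depend on the scaling. Of the genes named as risen below, AEN, CLU, COL1A2, CPM, DDB2, EPHA4, IER5, IL7, ISG15, MAP1LC3B, OPTN and PLK2 were not called under it (adjusted p of 0.0521 to 0.698). Leaving out each library in turn, and each replicate number from every group, kept 493 of the 1225 higher calls and 23 of the 86 lower calls in all 9 settings. The listed genes held 6039270 to 10535849 reads in the MD-224 libraries and 4490870 to 4834150 in the DMSO libraries.

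The rises were mostly moderate, with a median of 1.87-fold over the 1225 called genes, and 526 rose at least 2-fold, 77 at least 4-fold and 6 at least 8-fold. The falls had a median of 0.53-fold, with 38 genes at 0.5 or below. Summed over all listed genes the normalized counts were 6784126 to 6929260 in the MD-224 libraries and 4594460 to 4940724 in the DMSO libraries, a ratio of means of 1.45. These counts are not divided by gene length, so long and abundant transcripts weigh most. MDM2 itself made up 12.9% of the gain, and the 10 genes with the largest gains made up 29.5%. CDKN1A came next with 3.74%, and then CTSB, which encodes the lysosomal protease cathepsin B, with 3.09%. The share of genes called higher grew with their level. It was 30.4% of the 966 genes with a mean under 50 in DMSO, 35.4% of the 844 between 50 and 500, 48.8% of the 1050 between 500 and 5000 and 56.3% of the 213 above 5000. The median fold change went the other way, at 1.64, 1.38, 1.31 and 1.30 in the same order.

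**Figure D1:**
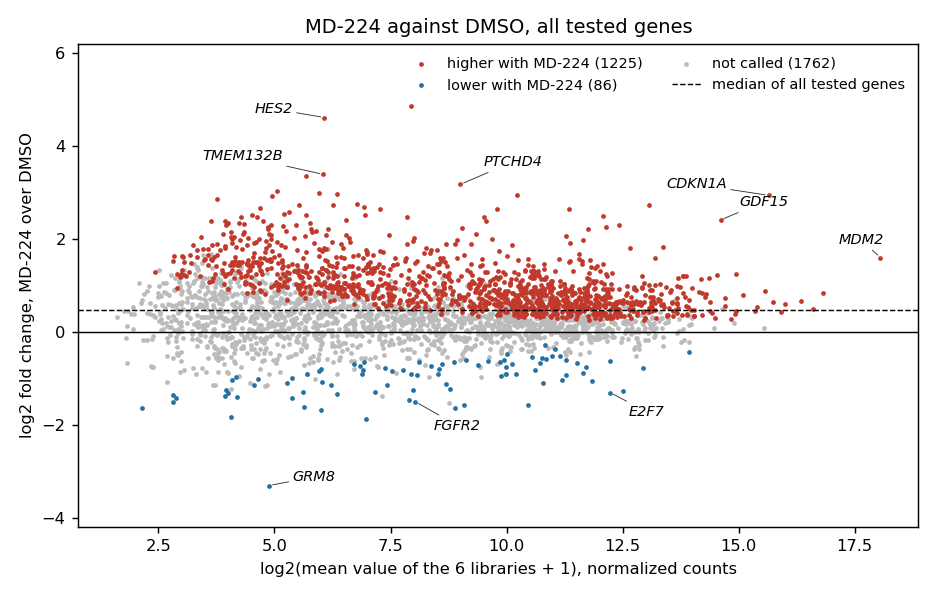
Each point is a tested gene, placed by its mean level over the 6 libraries (log2 of the mean normalized count plus 1) and its log2 fold change, MD-224 over DMSO. The cloud is shifted upward, with a median of 0.48, 1225 genes called higher and 86 lower, and MDM2 lies at the far right.

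The transcript of MDM2, the gene whose protein the compound targets, rose. It had 375912, 481272 and 366311 normalized counts with MD-224, against 114681, 163950 and 126598 with DMSO. All 3 MD-224 libraries lay above all 3 DMSO libraries, and the fold change was 3.03 (95% interval 2.38 to 3.87, limma adjusted p = 2.4e-06). The protein, which MD-224 is designed to remove, is not measured by these libraries. MDM2 took 5.42%, 7.09% and 5.39% of the listed counts in the MD-224 libraries, against 2.32%, 3.53% and 2.76% in the DMSO libraries. Of the neighbours of MDM2 on chromosome 12q, a region often amplified with it, 8 of 42 on the list used were listed, MDM2 included, and 3 were called higher and 1 lower (2 higher and 3 lower under TMM scaling). TSPAN31, a tetraspanin gene beside CDK4, had 18613, 21401 and 20013 with MD-224, against 7864, 9668 and 8504 with DMSO and rose 2.31-fold (1.98 to 2.70). CPM, the carboxypeptidase M gene next to MDM2, rose 1.65-fold (1.26 to 2.15). Neither gene had an MD-224 library at or below a DMSO library.

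The p53 control loop, in which p53 and its regulators act on each other, was sparsely covered. Of 11 genes on this list 4 were listed, and MDM2 and TP53INP1 were called higher under either scaling. TP53INP1, whose nuclear protein helps kinases act on p53 and also takes part in autophagy, had 7619, 6668 and 7827 normalized counts with MD-224, against 1145, 1279 and 1500 with DMSO. Every MD-224 library held several times the count of any DMSO library, and the fold change was 5.65 (4.55 to 7.02, limma adjusted p = 5.8e-09). PPM1D encodes the phosphatase WIP1, which removes phosphates from p53 and from kinases of the damage response. It had 1984, 1818 and 1873 with MD-224, against 1836, 1334 and 1611 with DMSO, a fold change of 1.20 (0.943 to 1.52) that missed the threshold (limma adjusted p = 0.208), and it lay below 1 under TMM scaling. PIDD1, a p53 target that builds the caspase-2 platform, was at 1.17-fold (0.687 to 2.00, limma adjusted p = 0.642), with its highest value in the second MD-224 library and with overlapping groups.

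The promoters of the listed genes were searched for the p53 response element. The element is 2 half-sites of 10 letters side by side; here up to 2 of the 20 letters could differ, but not the central C and G of either half-site, and since the element reads the same on either strand, 1 scan covers both. The window ran from 250 bases before to 50 bases after each RefSeq gene start (GRCh38.p14). Among the p53 targets called higher with MD-224, 56 of 77 had a window and 6 of those (10.7%) held an element, as did 8 of 86 (9.3%) of all listed p53 targets, called or not. The share was 14 of 902 (1.55%) among all genes called higher, 11 of 1286 (0.855%) among genes not called, and 0 of 67 among genes called lower. The 14 include the 6 risen p53 targets, and the genes not called also include p53 targets. These shares therefore do not compare risen and other genes apart from the p53 lists. Over all RefSeq genes the share was 98 of 27305 (0.359%). The 6 risen p53 targets with an element are listed with 60 bases of their own strand, the element in capitals, so that the site can be set beside the measured fold. They are PTCHD4 at chr6:48111178-48111237 (minus strand, 0 letters differing), DDB2 at chr11:47214949-47215008 (plus, 1 differing), and with 2 differing AEN at chr15:88621286-88621345 (plus), FAS at chr10:88991289-88991348 (plus), GPX1 at chr3:49358501-49358560 (minus) and MDM2 at chr12:68808903-68808962 (plus), which is shown in the next paragraph.
PTCHD4: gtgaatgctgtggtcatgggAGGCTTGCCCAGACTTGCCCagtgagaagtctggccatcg
DDB2: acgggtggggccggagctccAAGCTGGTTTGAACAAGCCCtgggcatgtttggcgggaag
AEN: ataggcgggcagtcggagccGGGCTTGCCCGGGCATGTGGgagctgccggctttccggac
FAS: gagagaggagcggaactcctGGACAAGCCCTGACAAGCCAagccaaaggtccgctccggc
GPX1: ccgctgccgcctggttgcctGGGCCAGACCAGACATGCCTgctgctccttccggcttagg
PTCHD4, with the exact match, had the largest fold change of the 6, and the other 5 lay between 1.74-fold for AEN and 3.03-fold for MDM2. DDB2, with 1 letter differing, was at 1.76-fold, below GPX1 (1.80), FAS (2.48) and MDM2, which have 2 differing. A match is a description of the letters, not a measured binding site.

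MDM2 has 2 promoters. By the rule above, only windows at the inner one, in the first intron of the longer transcript, held an element. The 250 bases before the inner start, chr12:68808767-68809016 on the plus strand of GRCh38.p14, are given in full because MDM2 had the largest gain in counts of all listed genes. The element found by that rule is again in capitals. Sites with more differing letters, or without the central C and G, are not marked, so the capitals do not count the p53 sites of this promoter.
MDM2: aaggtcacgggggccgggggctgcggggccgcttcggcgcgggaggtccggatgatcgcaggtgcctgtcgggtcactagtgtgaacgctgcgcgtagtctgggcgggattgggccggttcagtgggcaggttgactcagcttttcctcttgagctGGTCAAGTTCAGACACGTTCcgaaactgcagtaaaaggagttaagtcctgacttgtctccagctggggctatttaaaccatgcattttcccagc
The element begins 94 bases before that start. The deposited table holds 1 value per gene, so the share of reads from either promoter was not analysed here.

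Most of the listed genes that p53 is known to switch on rose. Of 158 p53 targets on 6 lists 112 were listed, and 77 of them (68.8%) were called higher and 3 lower (1 without the first DMSO library), beside 39.9% and 2.8% of all tested genes. Their median was 1.85-fold, beside 1.40-fold for all genes. Under TMM scaling 45 were called higher and 9 lower, with a median log2 change of 0.40, beside −0.01 over all genes. In 82 of the 112 all MD-224 libraries lay above all DMSO libraries, which was so for 1299 of the 3074 listed genes (42.3%). In 2 they all lay below, beside 104 genes (3.38%) over the table. Counts of 0 lower genes recur in the lists below. In the 24 lists with such a count, 1 of 279 listed genes was lower at an unadjusted p under 0.05 in limma, and edgeR and DESeq2 each called 0. The lists were taken for that count, and both tools used the same libraries and scaling, so this is no separate check. Under TMM scaling several of these lists held lower calls, up to 3 each in the NF-kB list and the p53 list of RNA and protein control.

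Among the cell-cycle arrest genes 12 of 16 listed were called higher and 1 lower (5 higher and 2 lower under TMM scaling), with a median of 1.83-fold. CDKN1A encodes p21, the inhibitor of cyclin-dependent kinases through which p53 stops the cell cycle. It had 104007, 83659 and 84506 normalized counts with MD-224, against 13252, 12142 and 10129 with DMSO. The lowest MD-224 library was more than 6 times the highest DMSO library, and CDKN1A rose 7.67-fold (6.12 to 9.62, limma adjusted p = 1.8e-09). BTG2, an antiproliferative factor that recruits the CCR4-NOT deadenylase, had 3867, 5594 and 4090 with MD-224, against 597.5, 798 and 764 with DMSO and rose 6.23-fold (4.57 to 8.49). ZMAT3, an RNA-binding zinc finger protein, had 19092, 14221 and 16042 with MD-224, against 5051, 4386 and 4407 with DMSO and rose 3.55-fold (2.88 to 4.37). PLK2, a polo-like kinase, moved less, with 17440, 15982 and 15250 with MD-224, against 9726, 10689 and 9124 with DMSO and 1.65-fold (1.44 to 1.88). In each of these 3 genes the groups stayed apart.

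E2F7 went the other way. It encodes an atypical E2F that represses E2F target genes in late S phase and is itself a p53 target in other settings. It had 2747, 2953 and 2583 normalized counts with MD-224, against 7304, 7257 and 6029 with DMSO. All MD-224 libraries lay far below all DMSO libraries, and the fold change was 0.403 (0.314 to 0.517, limma adjusted p = 1.9e-05). The fall kept its call in every leave-out setting and under TMM scaling.

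Of the cell death genes 14 of 20 rose and 1 fell (10 higher and 3 lower under TMM scaling), with a median of 2.14-fold. The death receptors were among them. FAS, the receptor of the Fas ligand, had 2520, 2270 and 2233 normalized counts with MD-224, against 995, 954 and 883 with DMSO and rose 2.48-fold (2.03 to 3.02). TNFRSF10B, the TRAIL receptor DR5, had 30777, 26269 and 29839 with MD-224, against 12211, 14248 and 12378 with DMSO and rose 2.24-fold (1.85 to 2.70). Groups stayed apart for both, as they did for EDA2R, a receptor of ectodysplasin A2 that rose 2.81-fold (2.22 to 3.56). On the mitochondrial side, BAX, which opens the outer membrane, had 9947, 11661 and 10807 with MD-224, against 5037, 5445 and 5166 with DMSO and rose 2.07-fold (1.75 to 2.44). BBC3, the BH3-only protein PUMA that sets BAX free, had 1307, 1905 and 1395 with MD-224, against 365.5, 801.5 and 395 with DMSO and rose 3.10-fold (2.07 to 4.65), with the second library the highest of each group. PHLDA3, which competes with AKT for membrane lipids, rose 2.75-fold (2.34 to 3.24). The exception was APAF1, the core of the apoptosome, with 1551, 918 and 1361 with MD-224, against 2827, 1283 and 2173 with DMSO. Its groups overlapped, its fold change of 0.627 (0.432 to 0.909) passed the threshold (limma adjusted p = 0.0418), and the call was lost without the first DMSO library (adjusted p = 0.199), the third DMSO library (0.111), the second MD-224 library (0.189) or the third MD-224 library (0.0602). It was also not called by edgeR (0.0706) or DESeq2 (0.0539).

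DNA repair and nucleotide supply were represented by 8 of 17 list members, of which 5 rose and 1 fell (3 higher and 1 lower under TMM scaling). RRM2B, the p53-driven small subunit of ribonucleotide reductase, had 8040, 6342 and 6483 normalized counts with MD-224, against 2730, 2811 and 3075 with DMSO and rose 2.41-fold (1.97 to 2.95). XPC, which finds bulky lesions for nucleotide excision repair, had 5705, 7200 and 6154 with MD-224, against 2442, 2986 and 2880 with DMSO and rose 2.29-fold (1.80 to 2.92). DDB2, its partner at ultraviolet lesions, had 2637, 3315 and 2840 with MD-224, against 1606, 1633 and 1739 with DMSO and rose 1.76-fold (1.43 to 2.16). No library of these genes crossed into the other group. APOBEC3C, a cytidine deaminase with close paralogs between which reads may have been split, rose 2.33-fold (1.78 to 3.04).

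The metabolic, redox and autophagy targets had the highest median of the 6 p53 lists, 2.32-fold, with 17 of 23 called higher and 0 lower (12 higher and 0 lower under TMM scaling). SESN1, a sestrin that damps mTORC1 signalling, had 4244, 3860 and 3925 normalized counts with MD-224, against 858, 1017 and 1023 with DMSO and rose 4.16-fold (3.25 to 5.32). FDXR, the mitochondrial ferredoxin reductase, had 4941, 7109 and 4887 with MD-224, against 972, 1482 and 1211 with DMSO and rose 4.61-fold (3.28 to 6.49). TIGAR, a phosphatase that diverts sugar from glycolysis, had 5847, 5066 and 5578 with MD-224, against 2459, 1755 and 2201 with DMSO and rose 2.59-fold (2.14 to 3.14). All these values lay apart between the groups. SPATA18, which takes part in the clearance of damaged mitochondria, had 1256, 1925 and 1399 with MD-224, against 198, 331 and 206 with DMSO and rose 6.29-fold (4.54 to 8.71). ABCA12, a lipid transporter known from the skin barrier, had 151.5, 249 and 167.5 with MD-224, against 17.5, 24.0 and 45.0 with DMSO and rose 6.71-fold (3.80 to 11.8). These were the largest rises of the list.

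The list of RNA, protein and signalling control was the longest, with 27 of 41 listed genes called higher and 0 lower (13 higher and 3 lower under TMM scaling). PTCHD4, a membrane protein reported to oppose Hedgehog signalling, had 928, 938 and 879.5 normalized counts with MD-224, against 74.4, 168 and 80.8 with DMSO. Its 3 MD-224 values lay close together and far above the DMSO values, and it rose 9.03-fold (6.13 to 13.3, limma adjusted p = 2.3e-07). TRIM22, an antiviral ubiquitin ligase of the tripartite motif family, had 9359, 10214 and 10328 with MD-224, against 2162, 3225 and 3275 with DMSO and rose 3.51-fold (2.78 to 4.42). RPS27L, a relative of ribosomal protein S27, had 11355, 10243 and 10584 with MD-224, against 4393, 4704 and 4936 with DMSO and rose 2.29-fold (1.99 to 2.64). Neither gene overlapped between the groups, although reads of RPS27L may be shared with its near copies. WDR63, now called DNAI3, a dynein subunit, rose 6.45-fold (4.12 to 10.1).

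**Figure D2:**
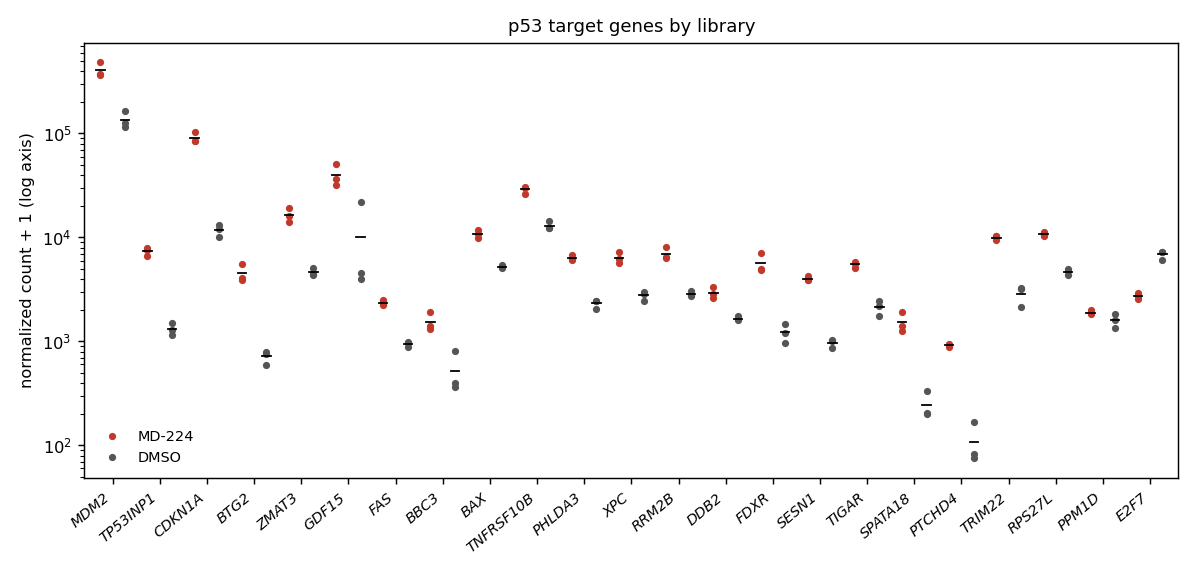
Points are the normalized counts plus 1 of single libraries on a log axis, MD-224 in red left of DMSO in grey, with the group mean as a black bar. In 21 of the 23 p53 targets shown the MD-224 points lie above every DMSO point; PPM1D is nearly level and E2F7 is lower with MD-224.

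Outside the p53 lists, lysosome and autophagy genes had 22 of 28 listed genes called higher (78.6%) and 0 lower, but 3 higher and 1 lower under TMM scaling. Their median of 1.53-fold was not far above the 1.40-fold of all genes. CTSD, the aspartic protease cathepsin D, had 58133, 63894 and 65231 normalized counts with MD-224, against 35333, 33282 and 33842 with DMSO. The groups were clearly apart, and it rose 1.83-fold (1.59 to 2.10, limma adjusted p = 3.4e-06). WIPI1, which binds the lipid of the forming autophagosome, had 4657, 4424 and 4792 with MD-224, against 2277, 2386 and 2321 with DMSO and rose 1.99-fold (1.65 to 2.39). MAP1LC3B, which coats the autophagosome, rose 1.68-fold (1.46 to 1.93), and OPTN, a receptor for its cargo, 1.59-fold (1.41 to 1.79). FUCA1, a lysosomal fucosidase that is also a p53 target, had the largest rise of the list with 2.49-fold (1.79 to 3.48).

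Secreted signals rose in part. Of the cytokines and chemokines 9 of 13 listed were called higher and 0 lower (2 higher and 0 lower under TMM scaling), with a median of 1.84-fold. Without the second MD-224 library 5 were called higher, and without the replicates numbered 3 of every group 3. CSF1, the growth factor of macrophages and osteoclast precursors, had 15639, 18165 and 20907 normalized counts with MD-224, against 6240, 8680 and 9770 with DMSO and rose 2.24-fold (1.76 to 2.85). IL1B, the inflammatory cytokine interleukin-1β, had 427, 384 and 336 with MD-224, against 124, 73.0 and 34.8 with DMSO and rose 5.52-fold (2.90 to 10.5). IL7, which keeps lymphocytes alive, had 339.6, 361 and 456.5 with MD-224, against 196, 185.5 and 267 with DMSO and rose 1.79-fold (1.33 to 2.41). No MD-224 library of these 3 genes was as low as a DMSO library. The complement genes gave 6 of 9 higher and 0 lower (2 higher and 1 lower under TMM scaling). C1S, a protease of the first complement component, had 9325, 11970 and 12995 with MD-224, against 4582, 6313 and 6129 with DMSO and rose 2.02-fold (1.63 to 2.49), and clusterin (CLU), which blocks the final pore, rose 1.61-fold (1.37 to 1.89). Among secreted proteases, inhibitors and growth factors 12 of 25 rose and 0 fell (2 higher and 0 lower under TMM scaling), a share of 48.0% beside 39.9% of all genes, and 4 rose without the replicates numbered 3.

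The interferon-stimulated genes and nucleic acid sensors had 9 of 15 listed called higher and 0 lower (3 higher and 1 lower under TMM scaling), and their median was 1.59-fold. Without the second or the third MD-224 library, or the first DMSO library, 5 were called higher. STAT2, a transcription factor of the type I interferon receptor, had 4627, 5594 and 5002 normalized counts with MD-224, against 2134, 2437 and 2668 with DMSO and rose 2.10-fold (1.79 to 2.48). NLRP1, an inflammasome sensor, had 1511, 1359 and 1449 with MD-224, against 758, 658 and 717 with DMSO and rose 2.02-fold (1.70 to 2.41). Both genes kept their groups apart. IFITM10, a member of the interferon-induced transmembrane family, rose 2.87-fold (1.94 to 4.24). ISG15, the ubiquitin-like protein that interferon induces, had 1275, 1838 and 1496 with MD-224, against 815, 1189 and 945 with DMSO. The lowest MD-224 value was just above the highest DMSO value, the fold change was 1.56 (1.08 to 2.27, limma adjusted p = 0.0490), and the call was lost without the first DMSO library (adjusted p = 0.150), the third (0.103), the second MD-224 library (0.166) or the third (0.0919). Of the antigen presentation genes 3 of 12 were called higher and 0 lower (0 higher and 0 lower under TMM scaling), and of the RNA polymerase III machinery 1 of 4 and 0 (0 higher and 1 lower under TMM scaling). Antisense and overlapping genes are not named here because the strand setting of the counting was not given in the sources used here.

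Few genes of growth signalling rose. Of the immediate early and MAPK feedback genes 2 of 22 were called higher and 2 lower, with a median of 0.992-fold (0 higher and 6 lower under TMM scaling). Without 1 library the list gave 1 to 5 higher (5 without the second DMSO library) and 2 to 4 lower, and the replicate block gave 5 higher. FOSL1, the AP-1 subunit FRA1, had 3980, 3391 and 2550 normalized counts with MD-224, against 12916, 6065 and 6140 with DMSO. The first DMSO library was far above the others, all MD-224 libraries were below all DMSO libraries, and it fell to 0.415-fold (0.290 to 0.594, limma adjusted p = 0.00062). DUSP2, a phosphatase that switches off nuclear MAP kinases, had 20.6, 26.4 and 16.8 with MD-224, against 85.4, 51.9 and 43.0 with DMSO and fell to 0.374-fold (0.240 to 0.584). IER5, an early gene tied to the heat shock factor HSF1, rose 1.47-fold (1.25 to 1.73). Of the growth factor receptors 2 of 10 rose and 4 fell, with a median of 0.904-fold (0 higher and 6 lower under TMM scaling), or 1 to 2 and 2 to 4 without 1 library. FGFR2, a fibroblast growth factor receptor, had 112, 174.5 and 125 with MD-224, against 422, 351 and 385 with DMSO and fell to 0.352-fold (0.255 to 0.486). MET, the receptor of hepatocyte growth factor, had 2559, 2208 and 2134 with MD-224, against 7250, 3921 and 3797 with DMSO and fell to 0.482-fold (0.345 to 0.673), again with the first DMSO library far above the other DMSO libraries and without overlap. EPHA4, an ephrin receptor, rose 1.73-fold (1.45 to 2.07). Of the NF-kB pathway 2 of 10 were called higher and 0 lower (0 higher and 3 lower under TMM scaling), and 0 to 2 were higher without 1 library.

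**Figure D3:**
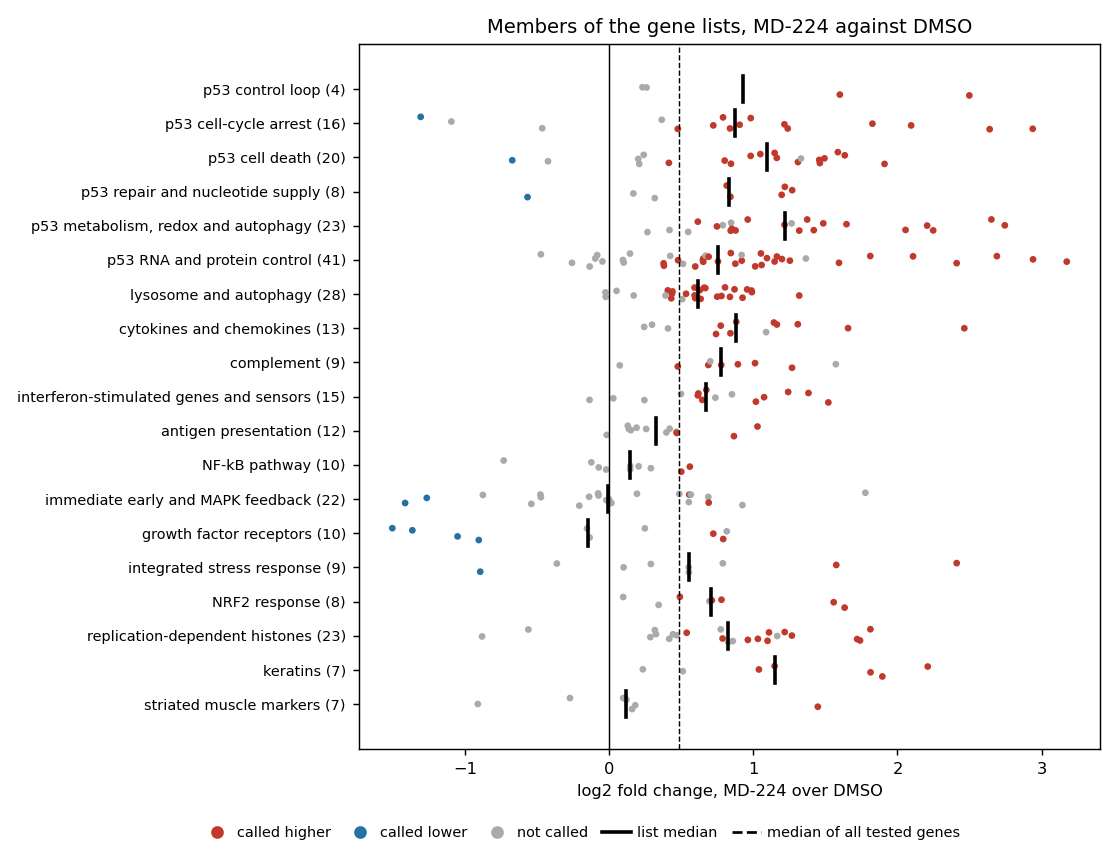
Each point is a listed member of a gene list (number in brackets) at its log2 fold change, MD-224 over DMSO, with the list median as a bar, the median of all genes (0.48) as a dashed line and calls in colour. The p53 lists lie right of the dashed line, while growth factor receptors (median −0.15) and immediate early genes (−0.01) lie left of it; under TMM scaling the calls of the lysosome list drop to 3 higher and 1 lower.

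In the integrated stress response list the counts depended on 1 control library. Of its 9 listed genes 2 were called higher and 1 lower (2 higher and 2 lower under TMM scaling), and without the second DMSO library 6 were called higher and 1 lower. GDF15, a stress cytokine and p53 target, had 36540, 51058 and 31947 normalized counts with MD-224, against 4563, 22047 and 3940 with DMSO. The second DMSO library was far above the other DMSO libraries, and the fold change of 5.32 (2.79 to 10.1, limma adjusted p = 0.0004) became 9.21 without it. NUPR1, a small stress-induced chromatin protein, had 3460, 5288 and 4403 with MD-224, against 873, 2630 and 1324 with DMSO and rose 2.98-fold (1.89 to 4.70). SESN2, the sestrin that senses leucine, had 2403, 3382 and 2510 with MD-224, against 1071, 3447 and 1073 with DMSO, so that the groups overlapped through the same DMSO library. Its fold change of 1.73 (1.09 to 2.74) missed the threshold (limma adjusted p = 0.0535), and without that library it was 2.55 (adjusted p = 4.4e-05). With the replicate number as a block it was called (adjusted p = 0.0182). PSAT1, an enzyme of serine synthesis, fell to 0.537-fold (0.416 to 0.694), with 2056, 2359 and 2225 with MD-224, against 3240, 5121 and 4200 with DMSO. The NRF2 response gave 5 of 8 higher and 0 lower (2 higher and 0 lower under TMM scaling), and 3 higher without the second MD-224 or the third DMSO library. It was led by ABCC3, an export pump, with 2.94-fold (2.39 to 3.62), and by AKR1B10, an aldo-keto reductase, with 3.10-fold (1.93 to 4.98).

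Several of the largest rises lay outside the p53 lists. HES2, a repressor of the Hairy family, had 117, 151 and 116 normalized counts with MD-224, against 4.38, 7.69 and 2.05 with DMSO. All DMSO libraries were near 0 and all MD-224 libraries far above them, and its fold change was 24.5 (13.6 to 44.2, limma adjusted p = 3.6e-07). PVRL4, now NECTIN4, a cell adhesion molecule, lay outside the rule for named genes because of its older symbol and was picked after its values were seen. It had 485, 565 and 371 with MD-224, against 35.0, 7.69 and 12.3 with DMSO, and its 29.1-fold difference (16.3 to 51.9) was the highest in the table, or 42.7-fold without the replicates numbered 1. SULF2, which trims sulfate from heparan chains outside the cell, had 14334, 14512 and 15565 with MD-224, against 1676, 2852 and 2265 with DMSO and rose 6.68-fold (4.88 to 9.15). TSPAN11, a tetraspanin gene on the p53 list of RNA, protein and signalling control, had 1379, 3104 and 1782 with MD-224, against 154, 481.5 and 224 with DMSO and rose 7.68-fold (4.53 to 13.0). CDC42BPG, a kinase that works with the GTPase CDC42, had 124, 136 and 66.0 with MD-224, against 8.75, 25.0 and 8.19 with DMSO and rose 7.89-fold (4.28 to 14.6). All 5 genes kept their call in every leave-out setting. Their groups were apart, which the rule for naming the largest rises required of all but PVRL4.

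Large families were nearer the background. Of 73 solute carriers 33 rose and 4 fell (10 higher and 13 lower under TMM scaling), or 45.2% and 5.48%. The genes with a ZNF symbol gave 19 of 60 and 1 (3 higher and 8 lower under TMM scaling). They were taken by symbol and include noncoding RNAs and pseudogenes beside zinc finger genes. The long noncoding RNAs, some of which are also on the ZNF list, gave 70 of 167 and 2 (22 higher and 4 lower under TMM scaling). Without the third MD-224 library 46 of the noncoding RNAs were called higher. Of 23 replication-dependent histone genes, whose transcripts mostly lack poly(A) tails and whose copies are close to identical, 11 rose and 0 fell (4 higher and 2 lower under TMM scaling). Cereblon itself was not analysed here, and DDB1, the scaffold of the ligase that MD-224 recruits, was at 1.23-fold (1.06 to 1.41, limma adjusted p = 0.0225), a call lost without the third DMSO library (adjusted p = 0.0782) or the second MD-224 library (0.0926) and in edgeR (0.107) and DESeq2 (0.0990), with a sign that turned under TMM scaling.

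Falls could be seen only among the listed genes, all of which had a higher mean after NCS with MI-1061 than with DMSO. Of 23 E2F cell-cycle genes on a further list, 0 were in the table. The 86 falls were led by GRM8, which encodes a metabotropic glutamate receptor, with 2.29, 5.15 and 6.28 normalized counts with MD-224, against 42.7, 48.0 and 66.5 with DMSO. The highest MD-224 value was far below the lowest DMSO value, and the fold change was 0.101 (0.0624 to 0.162, limma adjusted p = 1.3e-06). TCF15, a basic helix-loop-helix factor of the paraxial mesoderm, had 59.7, 68.2 and 31.4 with MD-224, against 242, 138 and 203 with DMSO and fell to 0.270-fold (0.176 to 0.415). RELT, a receptor of the TNF family, had 251, 241.5 and 166.5 with MD-224, against 1091, 460.3 and 626 with DMSO and fell to 0.319-fold (0.219 to 0.464). Groups were apart in both, as the rule for naming the largest falls required. ZIC5, a zinc finger factor of neural development, fell to 0.360-fold (0.234 to 0.554), RAPGEF5, an exchange factor of RAP1, to 0.310-fold (0.184 to 0.524), and EAF2, a partner of the elongation factor ELL, to 0.393-fold (0.266 to 0.583). NEMP2, a protein of the inner nuclear membrane, had 241, 241.5 and 296 with MD-224, against 555, 627 and 659 with DMSO and fell to 0.423-fold (0.329 to 0.544). In 61 of the 86 falls the first DMSO library was the highest of the 6 libraries, against 11 for the second and 14 for the third. In 590 of the 1225 rises the second MD-224 library was the highest, against 316 for the first and 318 for the third. What these libraries add was not tested beyond the leave-out settings. Without the first DMSO library the fit called 53 genes lower.

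Few markers of other cell types were in the table, and their part in the results was not tested. Of the bone and mesenchymal markers 7 of 27 were listed, with 3 higher and 0 lower (0 higher and 0 lower under TMM scaling), and sums of 115417 to 159085 in the MD-224 libraries and 75130 to 93662 in the DMSO libraries. COL1A2, a chain of the type I collagen that osteoblasts secrete, rose 2.35-fold (1.56 to 3.55). Of the epithelial markers 14 of 48 were listed, 2 higher and 0 lower (2 higher and 1 lower under TMM scaling), with sums of 20163 to 21049 and 17206 to 18790 in the same order. The haematopoietic markers (5 of 22 listed, 3 higher and 0 lower; 1 higher and 0 lower under TMM scaling) summed to 1221 to 2077 with MD-224 and 569.8 to 1256 with DMSO. Striated muscle markers (7 of 31 listed, 1 higher and 0 lower; 0 higher and 0 lower under TMM scaling) summed to 381 to 486.5 and 331.5 to 526. The neural markers (5 of 21, 2 higher and 1 lower; 2 higher and 1 lower under TMM scaling) summed to 8049 to 9978 and 1512 to 2464, almost all of it NEFL, the light chain of neurofilaments, which rose 4.91-fold (3.62 to 6.66). The endothelial markers (2 of 10, 1 higher and 0 lower; 0 higher and 0 lower under TMM scaling) summed to 197 to 361 and 150.4 to 232. No listed marker was at 0 in any of the 6 libraries, and in bulk RNA a larger number of cells of 1 kind and more RNA per cell cannot be told apart.

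Set directly against the inhibitor MI-1061, at the same dose and time, most listed p53 targets were lower with the degrader. This was the 1 pair of compounds compared, at 1 µM and 24 h. With MD-224, 381 genes (12.4%) were higher than with MI-1061 and 1531 (49.8%) lower, and the median gene was at 0.671-fold; under TMM scaling the median log2 difference moved by 0.49 and 847 genes were higher and 941 lower. Among the listed p53 targets 4 were higher and 84 of 112 lower (median 0.499-fold; 11 higher and 61 lower under TMM scaling). All of them, as listed genes, were also higher after NCS with MI-1061 than with DMSO, and the counts lower than MI-1061 cannot be told apart from that choice of genes. MDM2 had 375912, 481272 and 366311 with MD-224, against 1189842, 1828066 and 1698768 with MI-1061, or 0.262-fold (0.205 to 0.334, limma adjusted p = 7.9e-08). CDKN1A had 104007, 83659 and 84506 with MD-224, against 365099, 349866 and 349056 with MI-1061, or 0.255-fold (0.203 to 0.319). Neither gene overlapped between the compounds. PPM1D, not called against DMSO with MD-224, had 1984, 1818 and 1873 with MD-224, against 6826, 9007 and 8879 with MI-1061, or 0.231-fold (0.182 to 0.293). Over the shared DMSO libraries MD-224 stood at 3.03-fold for MDM2, 7.67-fold for CDKN1A and 1.20-fold for PPM1D, beside 11.6, 30.1 and 5.17 for MI-1061. Over DMSO, MI-1061 had 67.6% of all tested genes called higher and 4.46% lower. The 2 comparisons share their control libraries, so these values stand side by side only.

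Several genes with low counts in the MD-224 and DMSO libraries were far higher with MI-1061. KRT78, an epithelial keratin, had 53.9, 41.2 and 31.4 with MD-224, against 2365, 6478 and 5696 with MI-1061, or 0.00951-fold (0.00528 to 0.0171), and without the replicates numbered 1 the value was 0.00609. KRT4, another keratin, had 120.5, 137 and 90.0 with MD-224, against 3915, 7033 and 6392 with MI-1061, or 0.0205-fold (0.0136 to 0.0311). Both had risen over DMSO with MD-224, by 3.51-fold and 4.63-fold, although KRT78 was not called without the replicates numbered 3. TNFRSF10A, the TRAIL receptor DR4, had 8.03, 2.58 and 11.5 with MD-224, against 467, 301 and 407 with MI-1061, or 0.0191-fold (0.00803 to 0.0456), and its sister gene TNFRSF10B was at 0.438-fold (0.363 to 0.528). TBX4, a limb T-box factor, was at 0.0143-fold (0.00784 to 0.0263). All MI-1061 values of these 4 genes lay far above the MD-224 values, and groups apart were part of the rule that named them. Of the striated muscle markers all 7 listed were lower than with MI-1061 (6 under TMM scaling), and of the keratins 6 of 7 (5 under TMM scaling). Of 31 striated muscle markers on the list used, only these 7 are in the table, all with a mean at least 1.75-fold higher after NCS with MI-1061 than with DMSO.

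A smaller set of genes was higher with the degrader. PALMD, an actin-linked protein, had 850.2, 863 and 891 with MD-224, against 188, 94.7 and 154 with MI-1061. The MD-224 values were several times the MI-1061 values, at 6.17-fold (4.07 to 9.35, limma adjusted p = 7.9e-07), and over DMSO the gene rose 2.76-fold with MD-224 while MI-1061 stood at 0.448. NKX2-8, a homeobox factor, had 119, 108 and 138 with MD-224, against 10.3, 16.8 and 27.7 with MI-1061, or 6.82-fold (4.41 to 10.6). COL1A2 had 31243, 26593 and 41047 with MD-224, against 13461, 5370 and 10516 with MI-1061, or 3.55-fold (2.36 to 5.36). In all 3 genes no MI-1061 library reached an MD-224 library, which for PALMD and NKX2-8 the naming rule required. WIPI1 was at 2.38-fold (1.97 to 2.86), CASP1, the inflammatory caspase, at 2.45-fold (1.76 to 3.42), and IL7 at 2.11-fold (1.57 to 2.84). DMRTA1, a factor with a doublesex-type DNA-binding domain, and RBM43, an RNA-binding protein, were at 4.97-fold and 4.97-fold. HOGA1, a mitochondrial enzyme of hydroxyproline breakdown, had the largest value, 11.8-fold (5.40 to 25.8), which was 21.0 without the replicates numbered 1 and 7.32 without those numbered 2.

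Some genes were not called between the compounds. RPS27L was at 0.965-fold, with an interval of 0.839 to 1.11 that leaves out a change of 1.5-fold in either direction, and over DMSO it rose 2.29-fold with MD-224 while MI-1061 stood at 2.38. Under TMM scaling it was at 1.36-fold and called higher with MD-224 than with MI-1061 (adjusted p = 0.00174). OPTN was at 1.02-fold (0.903 to 1.15) and DGKA, a diacylglycerol kinase, at 0.869-fold (0.650 to 1.16). Under TMM scaling OPTN was at 1.44-fold and called higher (adjusted p = 7.8e-05), and DGKA, not called, was above 1. These intervals bound the difference and do not show that the compounds act alike.

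**Figure D4:**
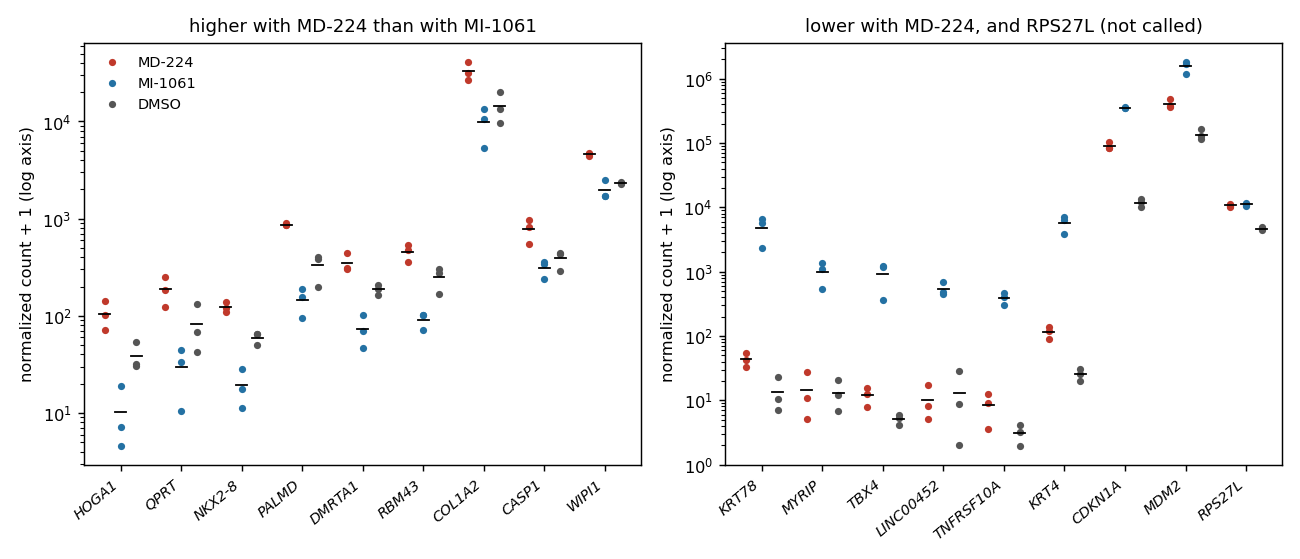
Points are normalized counts plus 1 per library on a log axis for MD-224 (red), MI-1061 (blue) and DMSO (grey), with group means as black bars. The left panel holds genes higher with MD-224 than with MI-1061, such as PALMD at 6.17-fold. The right panel holds genes lower with MD-224, down to KRT78 at 0.00951-fold, and RPS27L, which was not called. Under TMM scaling RPS27L was called higher with MD-224.

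The response to MD-224 was also compared with the response in cells that had been given NCS. In those cells 465 genes (15.1%) were higher with NCS and MD-224 than with NCS and 0 were lower (0%), with 3 lower at an unadjusted p under 0.05 in limma. Of the 1225 genes that rose without NCS 271 also rose after it, which is 22.1% of the 1225 and 58.3% of the 465. Of the 86 that fell without NCS 17 rose after it (19.8% of the 86, 3.66% of the 465), and 0 fell. The difference between the responses, after NCS minus without, was called above 0 for 125 genes (4.07%) and below 0 for 221 (7.19%). Scaling by TMM moved its median log2 value by 0.16 and gave 201 above and 127 below. Without the replicates numbered 3 of every group 3 genes remained above and 1 below, with 2 libraries left in each group. Leaving out single libraries of these 4 groups gave 63 to 150 above and 107 to 262 below.

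E2F7 and GRM8 were 2 of the 4 genes that stayed called without them. E2F7 had 9627, 6307 and 6672 with NCS and MD-224, against 3846, 2712 and 2822 with NCS, a rise of 2.40-fold, opposite to its fall of 0.403-fold without NCS. The log2 difference was 2.57 (95% interval 2.06 to 3.08, limma adjusted p = 1.6e-05). GRM8 had 91.8, 54.1 and 58.7 with NCS and MD-224, against 44.1, 30.0 and 29.1 with NCS, and its difference was 4.26 (3.29 to 5.24). The difference subtracts the change without NCS, measured in the same 6 libraries, so naming genes for that change favours the opposite sign. FGFR2 had 255, 246 and 178 with NCS and MD-224, against 177, 133 and 120 with NCS, a difference of 2.17 (1.51 to 2.82). MET had 7635, 5046 and 8814 with NCS and MD-224, against 4112, 3534 and 3566 with NCS, a difference of 1.96 (1.28 to 2.64). FOSL1 and RELT had differences of 1.98 and 1.85. In the last 4 genes the call was lost without the replicates numbered 3.

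In 87.6% of all listed genes the NCS mean lay above the DMSO mean, and it did so in the 3 genes described here, whose differences were below 0. TMEM132B, a membrane protein of uncertain role, rose 10.5-fold without NCS, with 74.6, 99.2 and 187 with MD-224, against 10.9, 13.4 and 6.14 with DMSO, and had 198, 168 and 179 with NCS and MD-224, against 128, 151 and 189 with NCS. Its log2 difference was −3.15 (−4.14 to −2.17), and without the replicates numbered 3 its fold change over DMSO was 6.62. RAB7B, a GTPase of late endosomes, had 68.8, 65.0 and 67.0 with MD-224, against 13.1, 5.77 and 14.3 with DMSO, and 158, 153.5 and 119.5 with NCS and MD-224, against 147, 147 and 103 with NCS, a difference of −2.46 (−3.38 to −1.53). For PTCHD4 the difference was −1.73 (−2.52 to −0.94), as it still rose 2.71-fold after NCS. These 3 calls, too, were lost without the replicates numbered 3. FDXR, in contrast, gave −0.01 (−0.70 to 0.69) and MDM2 0.58 (0.08 to 1.08), neither of which passed the threshold (limma adjusted p = 0.990 and 0.128). Under TMM scaling the difference of MDM2 was called (adjusted p = 0.0360).

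**Figure D5:**
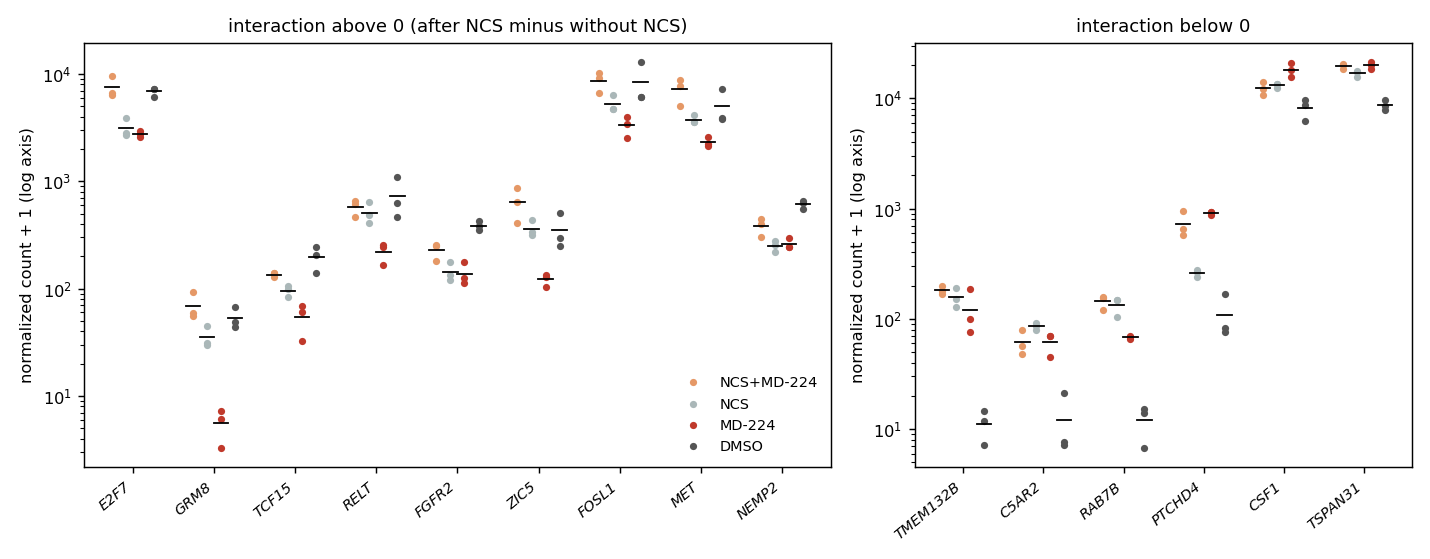
Points are normalized counts plus 1 per library on a log axis for NCS with MD-224 (orange), NCS (light grey), MD-224 (red) and DMSO (dark grey), with group means as black bars. In the left panel the MD-224 mean lies below the DMSO mean while the mean of NCS with MD-224 lies above that of NCS, as for E2F7 (log2 difference 2.57); in the right panel the NCS libraries lie above the DMSO libraries, as for TMEM132B (−3.15).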

How the data were processed

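The series holds 18 RNA-seq libraries of the SJSA-1 line in 6 groups of 3. The deposited values are the authors' normalized counts, an expression signal in reads divided by a size factor for each library. Per the submitters' processing notes, the build was GRCh38 and the tools were DESeq2 2.11.40.6, featureCounts 1.6.3 and HISAT2 2.0.5.2, with no roles given. The table is a selection of genes, as described with the results. Within a tolerance of 0.01 reads, 100% of values were whole multiples of 1 read in 13 libraries, all 9 without NCS among them. The design had assumed that the unit might be counts.

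The test was limma 3.58.1 (R 4.3.3) with trended variance on log2(value + 1), so fold changes of low genes are understated. All 18 libraries entered 1 fit, for 3073 genes with at least 10 in at least 3 libraries (1 gene fell below). P-values were two-sided and adjusted by Benjamini-Hochberg over the tested genes, with calls under 0.05 and 95% intervals. The depth of the listed genes is in the results, and low depth widens the intervals. The 3 DMSO and 3 MD-224 libraries had Pearson correlations of 0.964 to 0.982 within groups on the log2 scale. Alternatives were a pseudocount of 5, no filter, a mean of at least 50, TMM scaling of the listed values, fits of the compared groups alone, a replicate block, leave-outs, and edgeR 4.0.16 quasi-likelihood and DESeq2 1.42.0 on the recovered reads of the 9 libraries without NCS.

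The labels number the replicates in every group. Deviations from the group means correlated between like-numbered MD-224 and DMSO libraries at 0.46, 0.47 and 0.20, and between MD-224 and MI-1061 libraries at 0.41, 0.43 and 0.10. The numbers thus pair these libraries, least clearly for number 3, where MD-224 library 3 and MI-1061 library 1 were at 0.06. The main fit left this pairing out, and only the replicate block used it. The titles name the inhibitor MI-1061 while a protocol writes another number, and the titles were followed.

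The members and the 39 gene lists were chosen with earlier results of these data known. By rule the text could name the 12 largest rises and 12 largest falls with groups apart and a mean of at least 50, the 6 largest differences each way in the other 2 comparisons, up to 4 members of a list with the smallest p, and MDM2, MDM4, CDKN1A, IFNB1, RIGI, ISG15, CXCL10, CCL5, POLR3A, POLR3G and CRBN where tested. Genes outside it, which are AEN, APAF1, BBC3, CASP1, CTSB, DGKA, FUCA1, GPX1 and PVRL4, were chosen after their values were seen. Groups apart were also required of the largest differences from MI-1061. For genes named as largest rises, falls or such differences, groups apart are therefore no separate result. Of the listed names 2781 were current symbols, 219 matched RefSeq by another name and 74 had no unique match. Promoters are from RefSeq, GRCh38.p14. The strand setting of the counting was not given in the sources used here. Figures were drawn with matplotlib 3.10.9 under Python 3.11.15. A gene of the repair list is not reported here.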

Additional observations from a re-analysis of the deposited data

Results flagged for a closer look

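In 37 of the genes named above, the response to MD-224 in cells given NCS differed from the response in cells without NCS by the interaction test in limma (adjusted p under 0.05). The values are log2 differences, the change after NCS minus the change without, with 3 libraries in each of the 4 groups. The difference was above 0 in 12 genes and below 0 in 25. Over all tested genes it was called above 0 in 125 (4.07%) and below 0 in 221 (7.19%). Of the 112 listed p53 targets, named here or not, 5 (4.46%) were called above 0 and 14 (12.5%) below. No sign of the 37 genes turned in any alternative. The difference subtracts the change without NCS, measured in the same 6 libraries for which many of these genes were named, so that choice favours a sign opposite to that change. With TMM scaling 31 of the 37 stayed called, and without the replicates numbered 3 of every group 2 did (E2F7 and GRM8).

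Above 0 stood genes that fell without NCS. GRM8 (4.26), E2F7 (2.57), TCF15 (2.39) and ZIC5 (2.23) had the largest values. The receptors and growth signalling genes among them were FGFR2 (2.17), FOSL1 (1.98), MET (1.96) and RELT (1.85). The others were NEMP2 (1.84), RAPGEF5 (1.80), EAF2 (1.60) and PSAT1 (1.21). Of the 6 largest differences above 0 that the naming rule allowed, only E2F7 is in this set.

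Below 0 stood genes that rose without NCS. Among the p53 targets they were TSPAN11 (−1.85), PTCHD4 (−1.73), CSF1 (−1.25), TP53INP1 (−1.25), SPATA18 (−1.12), BTG2 (−0.99), TRIM22 (−0.96), ZMAT3 (−0.88), CDKN1A (−0.70) and RPS27L (−0.52). In the lysosome and autophagy list they were WIPI1 (−0.87), MAP1LC3B (−0.60), CTSD (−0.58) and OPTN (−0.48). Of the secreted, complement and interferon genes they were, besides CSF1, IL7 (−1.23), C1S (−0.94), STAT2 (−0.81) and CLU (−0.50). TMEM132B had the lowest value, −3.15, and the rest were HES2 (−1.93), PVRL4 (−1.79), KRT4 (−1.74), PALMD (−1.55), ABCC3 (−1.29) and TSPAN31 (−0.997).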

How the results depend on the processing

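Counts are given as higher and lower calls. MD-224 against DMSO, 1225 and 86 as reported, gave 327 and 357 with TMM scaling (45 in place of 77 higher p53 targets), 763 and 46 with the compared groups alone, 822 and 45 with edgeR, 990 and 57 with DESeq2, 1022 to 1127 and 53 to 100 without 1 library (53 without the first DMSO library), and 591 to 1024 and 29 to 77 without 1 replicate number (591 and 29 without number 3). MD-224 against MI-1061, 381 and 1531, gave 847 and 941 with TMM scaling, 305 to 385 and 1379 to 1502 without 1 library, and 194 to 360 and 1094 to 1446 without 1 replicate number (194 and 1094 without number 3). The difference after NCS minus without, 125 and 221, gave 201 and 127 with TMM scaling, 76 and 158 with the compared groups alone, 63 to 150 and 107 to 262 without 1 library, and 51 and 109, 74 and 104, and 3 and 1 without replicate number 1, 2 and 3. With the replicate block it gave 212 and 400, where like-numbered libraries were not paired throughout (lowest correlation −0.02). The replicate block gave 1495 and 118 against DMSO and 448 and 1670 against MI-1061, and among the genes named it changed no call but that of SESN2. Leaving out 1 replicate number kept the p53 targets called higher at 61 to 74. The pseudocount and the filters kept all these counts within 1.5 times.

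Of 1880 values of named genes under the alternatives, 1816 kept their direction and call, 44 lost their call, 5 gained one and 15 turned sign. Log2 values that turned sign were DDB1 (−0.20 with TMM scaling), PPM1D (−0.24 with TMM scaling) and PIDD1 (−0.26 with TMM scaling, −0.24 to 0.56 without 1 library, −0.10 without the replicates numbered 2) against DMSO. Against MI-1061 they were DGKA (0.30) and RPS27L (0.45) with TMM scaling and OPTN (−0.0045) without the replicates numbered 3. For the difference after NCS, FDXR was at 0.16 with TMM scaling, −0.28 to 0.29 without 1 library, and 0.0497 and 0.19 without the replicates numbered 2 and 3. The causes were not tested, beyond that leave-outs hold fewer libraries.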
